A study of Arabidopsis thaliana with 19 samples.

Results

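The MYB and SHINE transcription factors that control the cuticle in Arabidopsis thaliana were followed at 8 loci: MYB30 (AT3G28910), MYB94 (AT3G47600), MYB96 (AT5G62470), MYB16 (AT5G15310), MYB106 (AT3G01140), WIN1 (AT1G15360, also called SHN1), SHN2 (AT5G11190) and SHN3 (AT5G25390). They were given as a list and looked up by locus in the authors' deposited table of averaged array signals. Of these, 7 were found among the 21021 loci of that table, each with a single probe set, and SHN2 was not analysed here. Of the 7, MYB30, MYB94, MYB96 and SHN3 (4 genes) were bright enough to be tested, while MYB16, MYB106 and WIN1 were not.

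RNA came from protoplasts of shoot apices, sorted by a fluorescent reporter driven by a cell type's promoter, amplified in 2 rounds and hybridised to ATH1 arrays, 19 in all. All plants carried ap1-1;cal1-1, mutations with which the shoot tip keeps forming meristems in place of flowers, and all were grown for 28 days. The reporters AtML1 (n = 2 arrays) and HMG (n = 3) are both labelled epidermal, KAN1 (n = 3) organ circumference, LAS (n = 2) adaxial, HDG4 (n = 3) subepidermal, AtHB8 (n = 3) xylem, with the word stem added, and S17 (n = 3) phloem. No unsorted or wild-type sample was among them, the gene behind the HMG reporter is not given in the labels, and it is not stated if the replicates of a reporter are separate plants or sorts. The p-values therefore cover the spread between these samples alone, and that spread may be technical.

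The cuticle is the wax and cutin layer that covers the outer wall of epidermal cells and limits water loss. Its waxes are made by elongation of very-long-chain fatty acids in the endoplasmic reticulum and reach the surface through ABC transporters and lipid transfer proteins, and its cutin is a polyester of hydroxylated fatty acids and glycerol. MYB30, MYB94 and MYB96 belong to one MYB subgroup and activate genes of fatty acid elongation and wax synthesis. MYB16 and MYB106 are MIXTA-type MYB factors that shape epidermal cell outgrowth and promote cutin and wax genes together with WIN1, and the SHINE factors WIN1, SHN2 and SHN3 are AP2/ERF proteins named after the shiny leaves of plants that overproduce them.

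Signals are MAS5 intensities on a linear scale, and a level is compared only within a probe set. Every array had the same trimmed mean of 500, median signals lay between 150.7 and 182, and between 56.7% and 64.8% of the probe sets of an array were called present. The 4 epidermal marker genes ATML1, PDF1, ACR4 and LTP1 were called present on all epidermal arrays. Their summed signal was 52755 to 60189 in AtML1, 45403 to 47079 in HMG, 40827 to 47064 in KAN1, 21410 to 24629 in LAS and 3001 to 3687 in HDG4, against 811 to 865 in AtHB8 and 697 to 1703 in S17. In such bulk samples, fewer cells of a type and less RNA per cell cannot be told apart.

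MYB30, which activates genes of very-long-chain fatty acid synthesis, was highest in the epidermal reporters and lowest in the vascular ones. Its signal was 2498 and 2548 in AtML1 and 2203, 2560 and 2740 in HMG, all called present. It was 1021, 913 and 797 in KAN1 and 1051 and 788 in LAS, also called present. In HDG4 it was 128, 183 and 191, in AtHB8 2.01, 2.59 and 36.2, and in S17 9.05, 33 and 8.30, all called absent. The 5 epidermal arrays lay above all 14 others, KAN1 and LAS arrays overlapped with each other, and the HDG4 arrays lay between them and the vascular arrays.

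MYB94, an activator of wax synthesis genes, followed the same order except that KAN1 lay above LAS. Its signal was 1357 and 1599 in AtML1 and 1555, 2144 and 1515 in HMG. It was 798, 964 and 860 in KAN1, 438 and 496 in LAS and 173, 143 and 155 in HDG4, and was called present on all of these arrays. In the vascular reporters it was called absent, at 40.9, 9.81 and 11 in AtHB8 and 31.0, 7.00 and 47.8 in S17. Arrays of AtML1 and HMG overlapped, while the KAN1, LAS, HDG4 and vascular arrays did not overlap with each other or with the epidermal ones.

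MYB96 links abscisic acid and drought to wax synthesis. Its signal was 1079 and 1270 in AtML1 and 1649, 1840 and 2124 in HMG, so that the HMG arrays lay above the AtML1 arrays. It was 720, 644 and 547 in KAN1, 676 and 777 in LAS and 138, 171 and 133 in HDG4, again called present on every one of them. In AtHB8 it was 52.9, 9.04 and 15.2 and in S17 22.1, 26.2 and 40.4, all called absent. The KAN1 and LAS arrays overlapped, and both groups lay below every epidermal array and above every HDG4 array.

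SHN3 was the only SHINE gene above the filter, and its signals were lower and more scattered. They were 319, called marginal, and 439, called present, in AtML1, and 671, 399 and 603, called present, in HMG. In LAS they were 207, called absent, and 74.4, called marginal, and in KAN1 they were 95.8, 83.8 and 22.1, called absent. In HDG4 they were 5.99, 6.5 and 67.0, in AtHB8 12.5, 5.68 and 5.40, and in S17 21.7, 6.79 and 22.1, all called absent. The epidermal arrays lay above all 14 others, and the KAN1, HDG4 and LAS arrays were not separated from all of their neighbours.

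**Figure D1:**
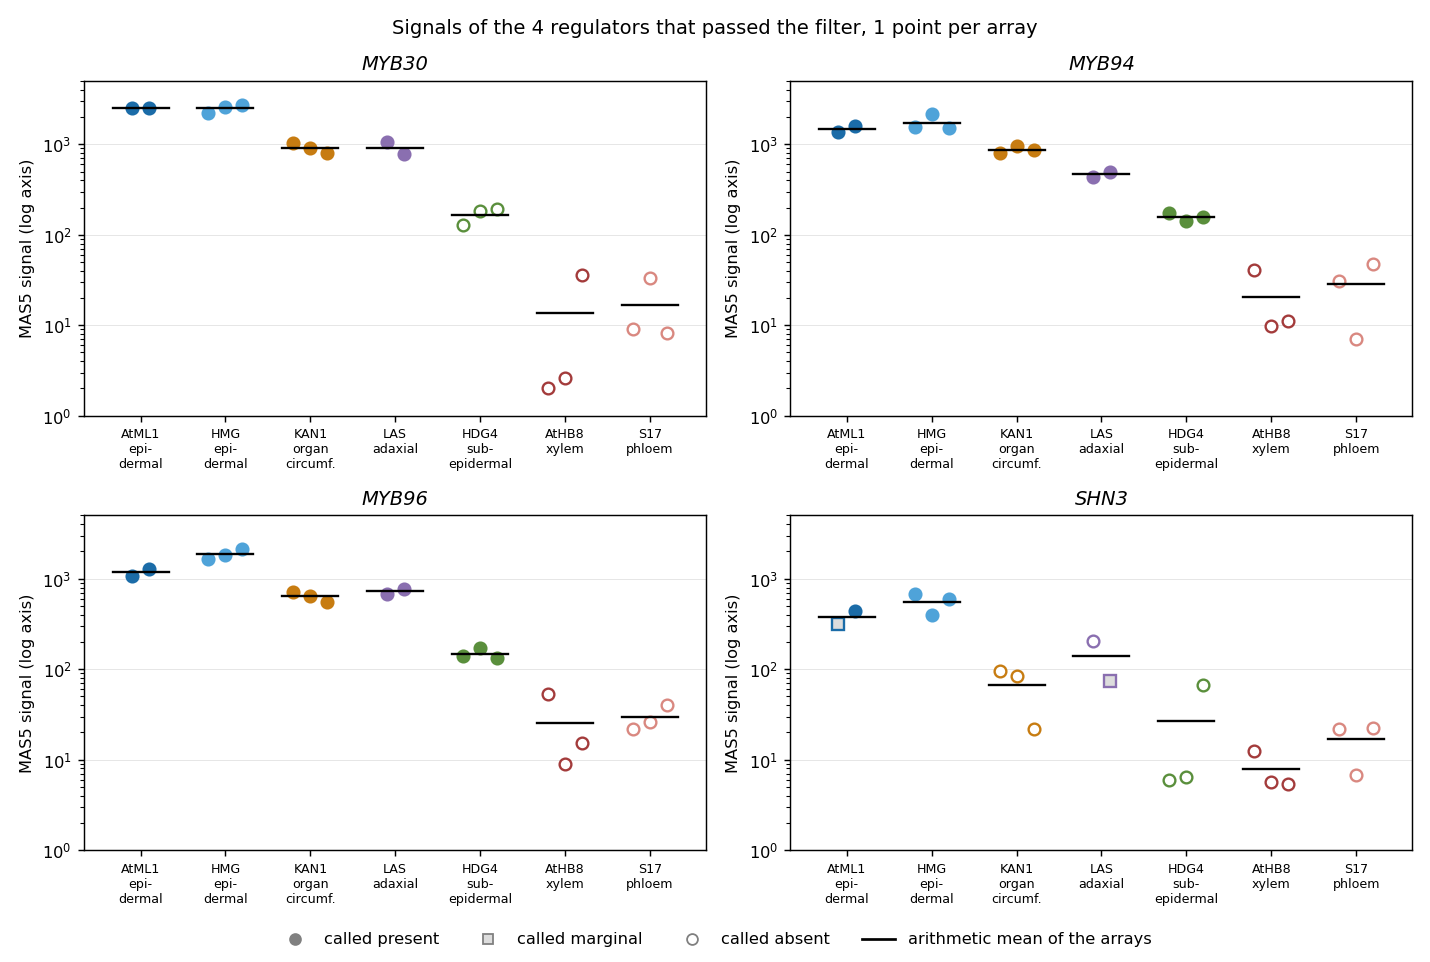
MAS5 signal (log axis) of MYB30, MYB94, MYB96 and SHN3 on each of the 19 arrays, by reporter. Filled circles are arrays called present, squares marginal and open circles absent, and the line is the arithmetic mean of a reporter. In each panel the 5 epidermal arrays lie above the 14 others, and HDG4 arrays lie far below them.

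The tests were made with limma on log2(signal + 1), over 15149 probe sets that reached the 40th percentile of the array's signals on each array of 1 or more reporters. A difference was called where its p, adjusted by Benjamini-Hochberg, was under 0.05 and its size at least 2-fold. Differences are given as log2 ± SE. Where all arrays of the lower group carried an absent call, "at least" gives a bound, for which each such array was set to its lowest signal called present or to the gene's own signal if that was higher. The bound is the ratio of the groups' mean log2 levels, turned back to a fold, so it equals the fitted fold where the gene's own signals were the higher, and it can lie above the ratio of arithmetic means.

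All 4 tested regulators differed among the 7 reporters by limma's F test, as did 75.2% of all probe sets tested. Against the equally weighted mean of the other 5 reporters, MYB30 was higher in the epidermis by 4.53 ± 0.45 (adjusted p = 1.84e-06), SHN3 by 4.06 ± 0.51 (adjusted p = 1.7e-05), MYB94 by 3.71 ± 0.35 (adjusted p = 1.01e-06) and MYB96 by 3.47 ± 0.27 (adjusted p = 1.39e-07). In that comparison 4.71% of the probe sets were called higher, and the 4 regulators ranked 7, 37, 60 and 84 of 15149 by the size of the difference. These differences mix near and far populations and rest in part on vascular signals called absent. Their sizes and ranks are fitted values, not sizes above background, as are those from the rest given below for genes called absent there. With AtHB8 and S17 left out of the rest, MYB30 fell to 2.28, below SHN3 at 3.24. As ratios of arithmetic means, the differences from all 5 reporters were 6.19 for MYB30, 9.03 for SHN3, 5.20 for MYB94 and 4.86 for MYB96. SHN3 thus had the highest ratio and MYB30 the highest log2 difference.

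A step of 10-fold or more lay between the epidermis and the layer beneath it. Against HDG4, which marks the subepidermal cells, SHN3 was at least 14.9-fold higher in the epidermal reporters (log2 4.89 ± 0.70, adjusted p = 1.58e-04) and MYB30 at least 15.1-fold (3.92 ± 0.63, adjusted p = 4.43e-04). MYB94 was 10.1-fold higher (3.33 ± 0.49, adjusted p = 1.85e-04), and MYB96 was 10.0-fold higher (log2 3.33 ± 0.38, adjusted p = 1.81e-05). In this comparison 5.69% of the probe sets were called higher. The mean signal in HDG4 was 6.66% of the epidermal mean for MYB30, 9.78% for MYB94, 9.67% for MYB96 and 5.66% for SHN3. The same share was 4.17% to 22.4% for the 4 epidermal marker genes, whose part in the result was not tested. Phloem marker genes summed to 88.2 to 252 on the epidermal arrays, against 1686 to 3319 in HDG4 and 656 to 1264 in KAN1, and their part was not tested either.

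Against the vascular reporters the differences were larger. MYB30 was at least 105-fold higher in the epidermis than in AtHB8 and S17 (adjusted p = 5.88e-09). MYB94 was at least 57.8-fold higher, MYB96 at least 50.9-fold and SHN3 at least 22.1-fold, with adjusted p-values of 4.37e-09, 5.92e-10 and 1.56e-06. Here 13% of the probe sets were called higher. All 4 were called absent on all 6 vascular arrays, and between xylem and phloem cells 0 of them were called by limma (AtHB8 minus S17), nor did any have an unadjusted p under 0.05, against 8.56% of probe sets called in either direction.

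Cells of the organ circumference (KAN1) had intermediate levels of the 3 MYB genes, and SHN3 was called absent on all 3 arrays. SHN3 was at least 7.88-fold higher in the epidermal reporters than in KAN1 (log2 2.98 ± 0.70, adjusted p = 0.00798, ratio of arithmetic means 6.97), and MYB96 was 2.33-fold higher (1.22 ± 0.38, adjusted p = 0.0352). MYB30 (1.47 ± 0.63, adjusted p = 0.118) and MYB94 (0.87 ± 0.49, adjusted p = 0.234) were not called. No KAN1 array reached the lowest epidermal array for either, but the share of all probe sets with such a gap was not counted. In this comparison 2.6% of the probe sets were called higher. The mean signal in KAN1 was 14.4% of the epidermal mean for SHN3, 36.2% for MYB30, 41.8% for MYB96 and 54.4% for MYB94.

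Both calls against KAN1 depended on single arrays. SHN3 fell to 2.32 ± 0.75 (adjusted p = 0.0576) without KAN1 replicate 3, whose signal of 22.1 was the lowest of its group. MYB96 was no longer called without either AtML1 array, without HMG replicate 2 or 3, or without any one KAN1 array, with adjusted p between 0.0526 and 0.122. The actin 3' to 5' ratio, a mark of RNA quality, averaged 5.50 ± 0.918 (SD, n = 3) in KAN1, against 12.2 ± 0.450 (n = 2) in AtML1 and 12 ± 6.75 (n = 3) in HMG. Its part in the result was not tested beyond leaving out the 3 arrays with the highest ratio, where MYB96 had an adjusted p of 0.0592.

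Of the 4 epidermal marker genes, 3 stood closer to their epidermal level in KAN1 than any of the 4 regulators. The mean signal in KAN1 was 94.8% of the epidermal mean for LTP1, a lipid transfer protein, 91.8% for PDF1, an epidermal surface protein, and 65.6% for ATML1, a homeodomain regulator of epidermal identity, but 40.6% for the receptor kinase ACR4. Whether the regulators changed unequally was tested on log2 ratios within each array, a choice made after seeing the data. Ratios were taken between pairs of regulators and of each regulator over PDF1. Between the epidermal and KAN1 arrays no ratio passed the two-sided exact permutation test after adjustment over the 30 ratios computed. The lowest adjusted p was 0.0895, where a raw p of 0.0179 is the smallest that 5 and 3 arrays can give. MYB30, MYB94 and MYB96 over SHN3 reached that smallest p without overlap, MYB94 over SHN3 at 1.21 to 2.42 in the epidermis and 3.04 to 5.22 in KAN1. MYB30, MYB94 and SHN3 over PDF1 reached it too. With so few arrays the test cannot show that the regulators changed equally, and SHN3 was called absent in KAN1.

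Adaxial cells marked by LAS, a regulator of axillary meristems, held the regulators at 29.0% (MYB94) to 47.7% (MYB96) of the epidermal mean. MYB94 was lower in LAS than in any epidermal array, with a log2 difference of 1.77 ± 0.56 (epidermis minus LAS, adjusted p = 0.0602). The differences were 1.85 ± 0.80 for SHN3, 1.46 ± 0.72 for MYB30 and 1.02 ± 0.43 for MYB96, with adjusted p of 0.17, 0.23 and 0.161. By limma 0 of the 4 were called, 3 had an unadjusted p under 0.05, and 3.89% of the probe sets were called higher. With a pseudocount of 16 all 4 were called higher than in LAS, with adjusted p between 0.00232 and 0.0354, against 4.24% of the probe sets. The groups did not overlap for any of the 4. How many of all probe sets were separated in this way was not counted, so nothing is drawn from it. The epidermal marker genes stood at 39.9% to 51.4% of their epidermal mean in LAS, where 3 of the 4 were called lower than in the epidermis.

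The spread used in these tests was shared with the vascular arrays, where the signals of absent genes scatter widely on a log scale. Fitted over the 13 arrays of the other 5 reporters, a choice made after seeing the data, the difference between epidermis and LAS kept its size, and the SE of MYB30 was 0.20 in place of 0.72. MYB30 (adjusted p = 0.00183), MYB94 (adjusted p = 3.73e-04) and MYB96 (adjusted p = 0.00671) were then called higher than in LAS, where 3.56% of the probe sets were called higher, and SHN3 was not (adjusted p = 0.23). In the same fit MYB30, MYB96 and SHN3 were called higher than in KAN1 (adjusted p = 3.97e-04, 6.05e-04 and 0.0216), against 2.65% of probe sets, and MYB94 passed the p threshold (adjusted p = 0.0045) but stayed under 2-fold. Single vascular arrays also moved these calls in the 19-array fit. Without AtHB8 replicate 1, MYB94 and MYB96 were called against LAS (adjusted p = 0.0295 and 0.0165). Without AtHB8 replicate 3, MYB30 was called against LAS and KAN1 (adjusted p = 0.0281 and 0.00741), and without S17 replicate 2 or 3, MYB94 was called against LAS (adjusted p = 0.0123 and 0.0397).

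**Figure D2:**
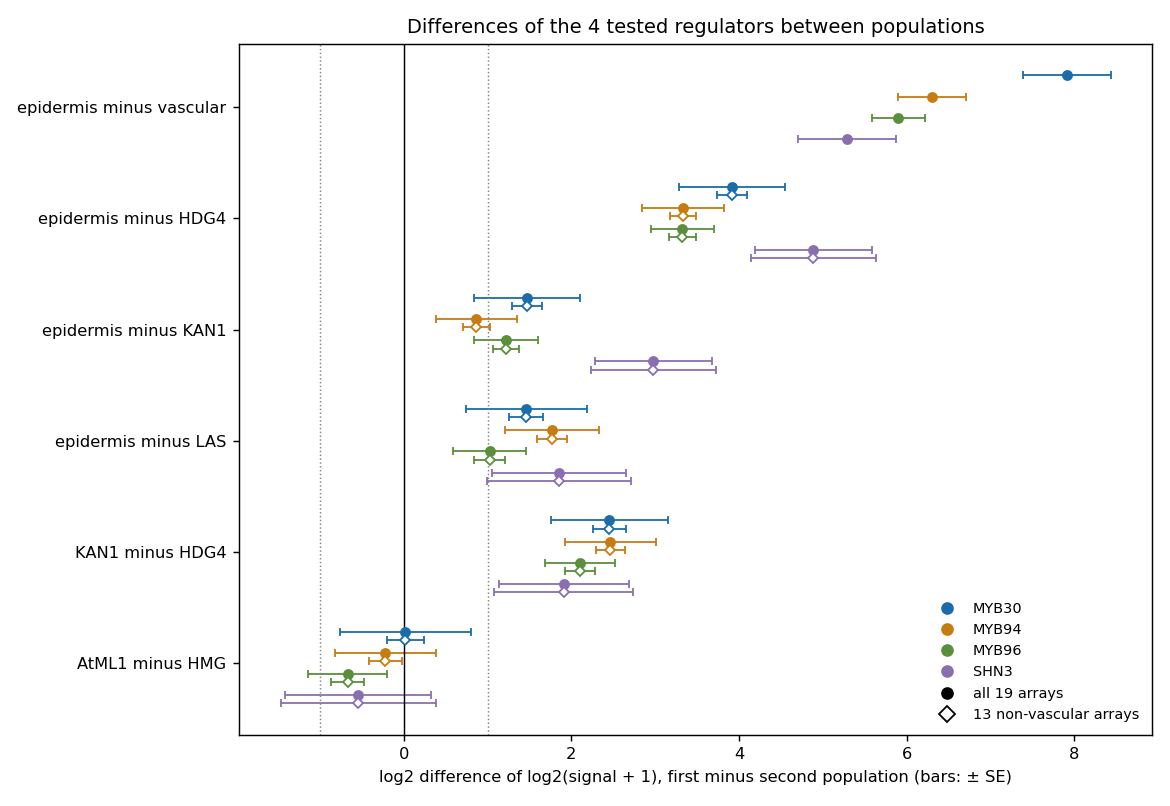
Log2 differences of MYB30, MYB94, MYB96 and SHN3 between populations (x axis, first minus second population, bars ± SE), in the fit over all 19 arrays (filled circles) and over the 13 arrays without AtHB8 and S17 (open diamonds). Dotted lines mark a 2-fold difference. Positions that involve signals called absent (the vascular reporters, MYB30 in HDG4, SHN3 in KAN1 and HDG4) are fitted values, not sizes above background. The 3 MYB genes have shorter bars in the 13-array fit, while those of SHN3 are as long.

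KAN1 and HDG4, both outside the epidermal label, were set against each other directly. MYB94 was 5.53-fold higher in KAN1 (2.47 ± 0.54, adjusted p = 0.0034), MYB30 at least 5.47-fold (2.45 ± 0.70, adjusted p = 0.0162) and MYB96 4.30-fold (2.11 ± 0.42, adjusted p = 0.00184). SHN3 was called absent on all arrays of both reporters, so no size is given, and its test was not passed (adjusted p = 0.0762). In this comparison 9.8% of the probe sets were called higher. That test was passed without HDG4 replicate 4, where the signal of SHN3 was 67.0 (adjusted p = 0.00341), and without KAN1 replicate 3 (adjusted p = 0.0355), again between signals called absent.

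The 2 epidermal reporters did not separate the 4 tested regulators. The differences AtML1 minus HMG were 0.02 ± 0.78 for MYB30, -0.22 ± 0.60 for MYB94, -0.54 ± 0.87 for SHN3 and -0.67 ± 0.47 for MYB96, by limma 0 were called, 0 had an unadjusted p under 0.05, and 5.01% of the probe sets were called in either direction. The SE of up to 0.87 leaves room for differences of over 2-fold. Only for MYB96 did the arrays of the 2 reporters not overlap, with AtML1 at 1175 ± 135 (SD, n = 2) and HMG at 1871 ± 239 (n = 3).

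Ordered from high to low by mean log2 level, MYB30 ran AtML1, HMG, LAS and KAN1, above HDG4, S17 and AtHB8, where it was called absent. Of the steps none was called down to KAN1, and the step from KAN1 to HDG4 was (adjusted p = 0.0162). The HDG4 signals lay above the vascular ones, and that step to S17 was called (adjusted p = 5.83e-04), but between signals called absent. MYB96 ran HMG, AtML1, LAS, KAN1 and HDG4, above S17 and AtHB8, where it was called absent. Its steps from KAN1 to HDG4 (log2 2.11, adjusted p = 0.00184) and from HDG4 to S17 (adjusted p = 2.65e-04) were called. MYB94 ran HMG, AtML1, KAN1, LAS and HDG4, above S17 and AtHB8, where it was called absent, and the only step called was from HDG4 to S17 (adjusted p = 4.8e-04). SHN3 ran HMG, AtML1 and LAS, above the 4 reporters where it was called absent, with no step called. Neighbours without a call were not separated by the test at this spread. Of all probe sets, 17.8% were called higher in HDG4 than in S17.

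The MIXTA-type genes MYB16 and MYB106 were dim, and neither passed the filter. MYB16 had signals of 87.0, called present, and 68.3, called marginal, in AtML1, against 10.2, 1.12 and 3.22, called absent, in HMG. It was 38.2, 93.8 and 34.9 in KAN1, 6.70 and 5.03 in LAS and 23.3, 28.9 and 54.4 in HDG4, and on these 8 arrays only the first of KAN1 was called present. In the vascular arrays it lay between 1.61 and 14.1, called absent. MYB16 was thus called present on 1 AtML1 array and 1 KAN1 array only, and absent on all 3 arrays of HMG, the other epidermal reporter.

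MYB106, also known as NOECK for its part in trichome branching, had signals of 73.6 and 100.1 in AtML1, against 16.6, 9.11 and 5.05 in HMG, all called absent. It was 34.9, 44.3 and 52.8 in KAN1, of which 44.3 was called present, and 64.8 and 43.0 in LAS and 16.9, 2.54 and 32.6 in HDG4, called absent. In AtHB8 it was 10.4, 27.9 and 18.6 and in S17 22.1, 28.6 and 46.7, called absent. It was called present on 1 of 19 arrays, and its 2 highest signals, in AtML1, were both called absent.

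MYB16 was at least 4.15-fold higher in AtML1 than in HMG, where it was called absent on all 3 arrays. With no filter, over 22746 probe sets, the difference was called for MYB16 (log2 4.07 ± 0.79, adjusted p = 0.0165) and for MYB106 (adjusted p = 0.0365), where 1.28% of probe sets were called higher. For MYB106 all arrays of both reporters were called absent, so no size is given. The trichome marker TRY, an inhibitor of trichome fate, was 256 and 320 in AtML1, against 66.6 to 131 in HMG, while GL1, a MYB activator of trichome fate, was called absent on all 19 arrays. GL2, a homeodomain factor of trichome growth, went the other way, at 9.21 and 41.6 in AtML1, against 33.2 to 60.9 in HMG, and was brightest in AtHB8, at 175.5 to 229. The summed signal of the 3 trichome markers with a probe set was 328 to 387 in AtML1, against 130 to 197 in HMG, most of it from TRY in AtML1. The part of trichome cells in the result was not tested. Without the filter MYB16 was also higher in the epidermis than in the vascular reporters (1.67 ± 0.53, adjusted p = 0.0204, with 9.67% of probe sets called higher), although its HMG arrays, at 1.12 to 10.2, overlapped with the vascular arrays, at 1.61 to 14.1. No other comparison of MYB16, MYB106 or WIN1 was called.

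WIN1, the founding SHINE gene and an activator of cutin synthesis, was called absent on all 19 arrays, with signals between 2.49 and 13.3. Its means by reporter lay between 4.62 ± 2.66 (SD, n = 3) in AtHB8 and 10.6 ± 1.56 (n = 2) in LAS. No difference among the reporters passed limma's F test without a filter (adjusted p = 0.396). A signal called absent does not show that the transcript was missing from the cells.

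**Figure D3:**
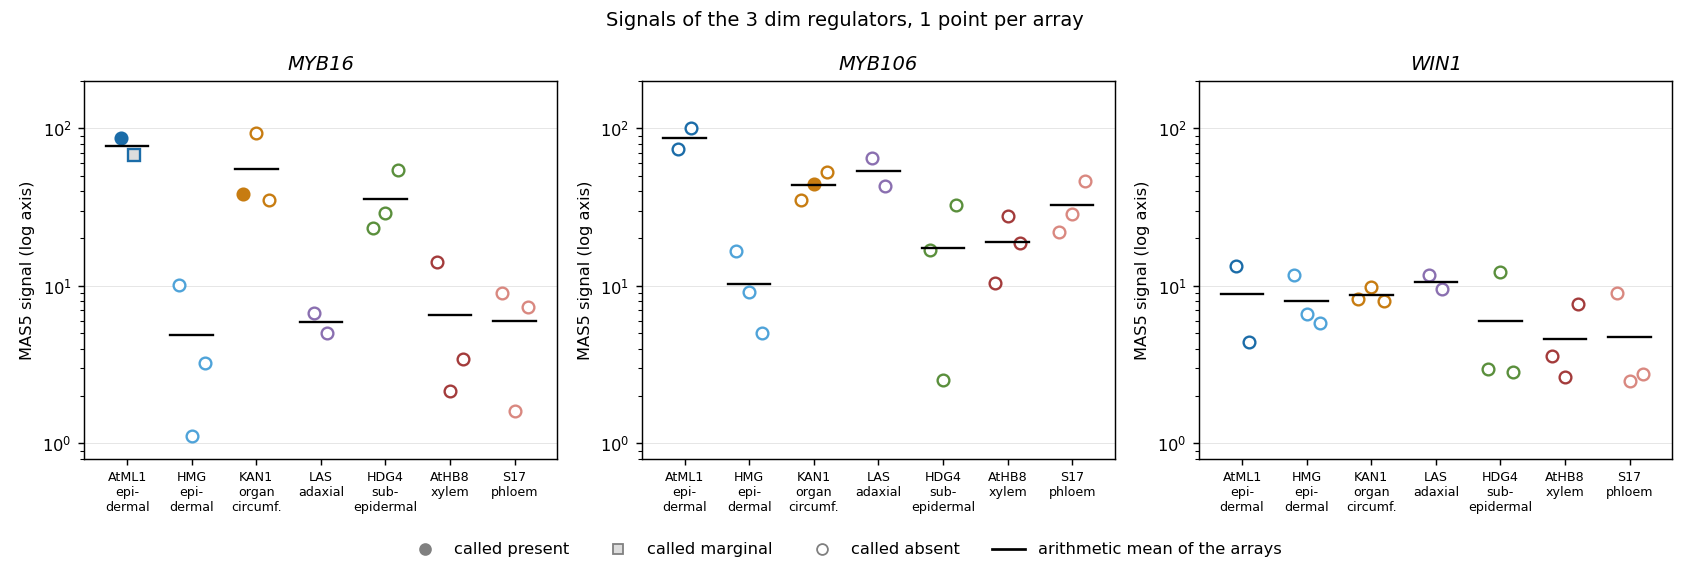
MAS5 signal (log axis) of MYB16, MYB106 and WIN1 on each of the 19 arrays, by reporter, with symbols and lines for calls and means. MYB16 and MYB106 are higher on the 2 AtML1 arrays than on the 3 HMG arrays, and WIN1 stays under 13.3 throughout.

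Among relatives and partners of these factors, PDF2 and MYB17 were called higher in the epidermis. Of 15 listed, 12 had a probe set and 7 were tested. Against the other 5 reporters 2 of the 7 were called higher in the epidermis and 0 lower, against 4.71% of all probe sets called higher. PDF2, a homeodomain partner of ATML1, was higher by 3.88 ± 0.27 (adjusted p = 3.49e-08), and MYB17, a MIXTA-type relative, by 1.73 ± 0.15 (adjusted p = 4.99e-07). PDF2 signals averaged 4336 ± 4.31 (SD, n = 2) in AtML1, 5513 ± 699 (n = 3) in HMG and 144 ± 73.1 (n = 3) in HDG4. MYB17 was high in all 5 non-vascular reporters, with 5551 ± 411 in AtML1 and 5264 ± 122 in HMG, against 5011 ± 641 in HDG4, 5719 ± 563 in KAN1 and 5136 ± 540 in LAS, and only 480 ± 47.9 in AtHB8 and 175 ± 82.6 in S17. Its difference between epidermis and HDG4 was 0.12 ± 0.21 (adjusted p = 0.749).

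HDG1, a homeodomain factor that binds cuticle genes and is held back by the protein CFL1, was lower in the epidermal reporters than in HDG4 (log2 -2.16 ± 0.56, adjusted p = 0.0124), where 3.95% of probe sets were called lower. It averaged 375 ± 34.9 in AtML1 and 598 ± 173 in HMG, against 2126 ± 497 in HDG4. DEWAX, an AP2/ERF repressor of wax genes, was higher in the epidermal reporters than in HDG4 (1.37 ± 0.45, adjusted p = 0.0409), where 5.69% of probe sets were called higher. It averaged 151 ± 111 in AtML1 and 225 ± 130 in HMG, against 63.0 ± 18.4 in HDG4. The arrays overlapped, with 72.9 the lowest in AtML1 and 84.1 the highest in HDG4. DEWAX was not particular to the epidermis, at 156 ± 29.7 in AtHB8 and 167 ± 27.5 in S17. MIEL1, a ubiquitin ligase that targets MYB30 and MYB96, was present on all arrays, at 1929 ± 501 in AtML1 and 1815 ± 131 in HMG, against 1444 ± 193 in KAN1 and 1724 ± 309 in HDG4. CER9, another ubiquitin ligase that restrains cuticle formation, averaged 1330 ± 67.0 in AtML1 and 2038 ± 579 in HMG, against 1548 ± 352 in HDG4. Neither ligase was called in any comparison of the epidermis.

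PLA2-ALPHA encodes a secreted phospholipase that MYB30 draws into the nucleus, where it holds MYB30 back. It was called present only in KAN1, at 386 to 423, and was at least 14.3-fold lower in the epidermal reporters than there (log2 -4.49 ± 0.41, adjusted p = 3.6e-06), where 6.29% of probe sets were called lower. It was 35.4 and 45.4 in AtML1, against 3.19 to 16.6 in HMG, all called absent. MYB31 and MYB60, close relatives of MYB30, were dim, with means of at most 27.5 and 41.6. The suberin and cutin regulators MYB41, MYB107 and MYB9 had means of at most 57.4, 15.8 and 59.6 and were called absent on every array.

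Genes of wax and of cutin synthesis and export were followed as 2 lists, and which of them these factors act on was not tested. Of 21 wax genes 20 were tested. In the epidermis 18 were higher than in the rest, 16 higher than HDG4 and 19 higher than the vascular reporters, with none lower, against 4.71%, 5.69% and 13% of all probe sets called higher. Their median difference from the rest was 2.98, against 0.01 over all probe sets tested. The elongases KCS2 (4.50 ± 0.40), KCS1 (4.22 ± 0.16) and CER6 (4.18 ± 0.38) and the acyl-CoA synthetase LACS1 (4.24 ± 0.52) led the list, with adjusted p between 1.03e-10 and 1.37e-05. KCS5, an elongase, was at least 31.9-fold higher than in HDG4, and LTPG2, a lipid transfer protein, was 28.4-fold higher. The exceptions against the rest, named after seeing their values, were the reductase CER4 (0.71, adjusted p = 0.0995) and the elongase KCS9, which passed the p threshold but stayed under 2-fold (0.50, adjusted p = 0.0101).

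Of 17 cutin genes 13 were tested, and all 13 were higher in the epidermis than in the rest, than in HDG4 and than in the vascular reporters, with the same shares of all probe sets. Their median difference from the rest was 4.0. The hydroxylase CYP77A6 (4.37 ± 0.45), the transporter ABCG13 (4.34 ± 0.30), the elongase FDH (4.30 ± 0.22) and the acyltransferase DCR (4.16 ± 0.27) led it, with adjusted p between 1.15e-09 and 2.38e-06. The lipase gene LTL1 was at least 34.6-fold higher than in HDG4. Cutin and wax genes thus stepped down between the epidermis and HDG4 as the regulators did, with medians of 6.88% and 10.3% of the epidermal mean in HDG4.

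Against KAN1 and LAS the 2 lists separated less from the epidermis. Of the 20 wax genes 2 were higher in the epidermis than in KAN1 and 10 higher than in LAS, and of the 13 cutin genes 3 and 5 were, against 2.6% and 3.89% of all probe sets. The median wax gene stood at 75.8% of its epidermal mean in KAN1, with a range of 25.2% to 168%, and at 31.6% in LAS. The median cutin gene stood at 47.6% in KAN1 and 35.2% in LAS. Between KAN1 and HDG4, 17 of the 20 wax genes and all 13 cutin genes were higher in KAN1, against 9.8% of all probe sets.

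**Figure D4:**
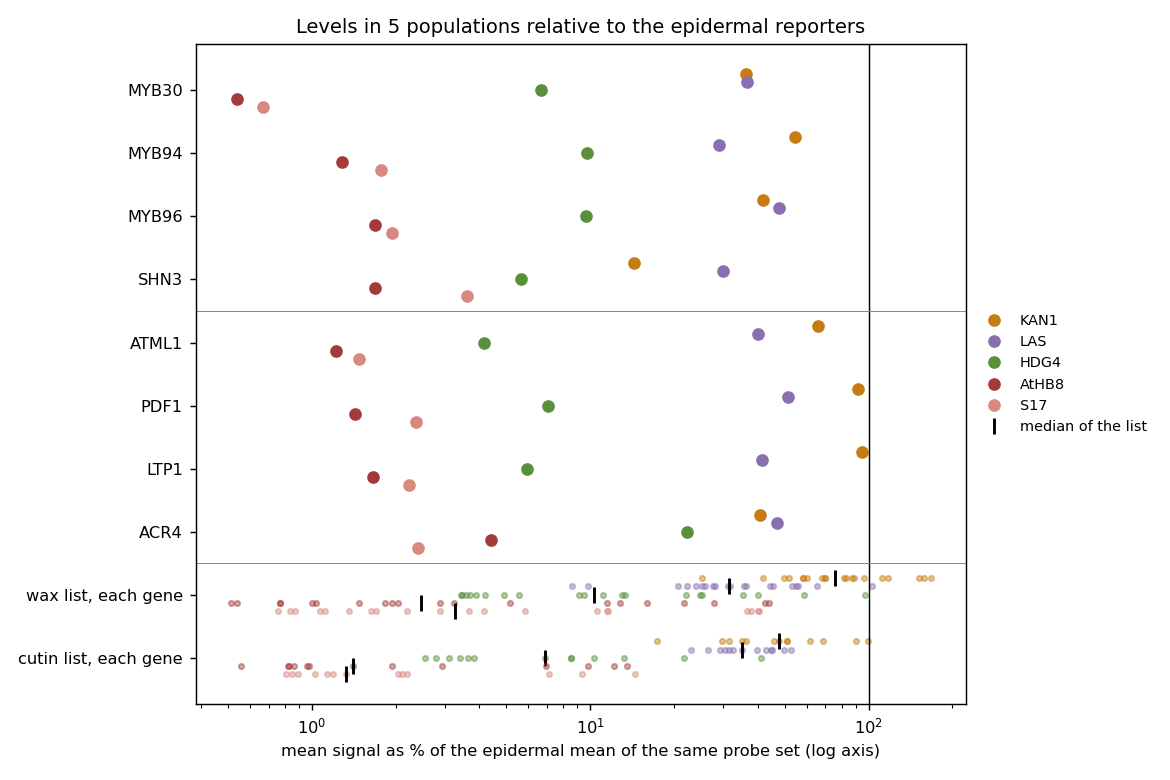
Mean signal in 5 reporters as a percentage of the epidermal mean of the same probe set (log axis), for 4 regulators, 4 epidermal marker genes and each tested wax and cutin gene, with the list median as a bar. SHN3 in KAN1 stands at 14.4%, while LTP1 stands at 94.8% and the wax median at 75.8%.

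Across the 19 arrays the regulators followed each other and the genes of wax and cutin synthesis. Pearson's r of log2(signal + 1) was 0.98 for MYB94 with MYB96, 0.94 for MYB30 with MYB96 and 0.92 for MYB30 with MYB94, and 0.80 to 0.86 for SHN3 with the MYB genes. These values describe 7 groups of replicates and are shaped by the gap between vascular and other reporters. Over the 13 arrays without the vascular reporters they were 0.95 to 0.98 among the MYB genes and 0.81 to 0.90 with SHN3. The median r of MYB94 was 0.92 with the 20 wax genes and 0.94 with the 13 cutin genes, against 0.95 with the 4 epidermal marker genes and 0.13 with all probe sets tested. For MYB30 and MYB96 it was 0.91 and 0.93 with the wax genes, 0.92 and 0.94 with the cutin genes and 0.94 and 0.95 with the epidermal marker genes. SHN3 had lower values, 0.79 with the wax genes, 0.84 with the cutin genes and 0.82 with the marker genes. Over 13 arrays its r with wax genes had a median of 0.73 and a lowest value of -0.27, for KCS9. The MYB genes also had low values there, with medians of 0.91 for MYB30, 0.93 for MYB94 and 0.87 for MYB96. Their lowest values were 0.11 and 0.20 for MYB30 and MYB94 with KCS9, and 0.09 for MYB96 with CER4.

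The patterns most like each regulator were then listed, as the 3 single-locus probe sets with the highest r among 14305. For MYB30 these were the elongase KCS20 (r = 0.97), the acyl-CoA synthetase LACS2 (0.97) and the glycerol-3-phosphate dehydrogenase GPDHC1 (0.97). For MYB94 they were KCS1 (0.98), the wax enzyme CER3 (0.98) and the transporter ABCG11 (0.98), and for MYB96 the lipid transfer protein LTPG1 (0.97), ABCG11 (0.97) and GPDHC1 (0.97). SHN3 had other neighbours, led by PROPEP1, the precursor of a wound-response peptide (0.94), the adenine phosphoribosyltransferase APT3 (0.93) and AT1G13970 (0.93). Over 13 arrays, a choice made after seeing the data, the first neighbours were KCS8 for MYB30 (0.98), CER6 for MYB94 (0.99), the homeodomain gene HDG2 for MYB96 (0.99) and AT1G22570 for SHN3 (0.94).

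Stress and abscisic acid genes were followed because MYB96 and MYB30 act in those responses and protoplasting can change such genes. Of 13 listed, 12 were tested, and in the epidermis 0 were higher and 6 lower than in the vascular reporters, where 16% of probe sets were called lower. Their summed signal was 70258 to 81425 in AtML1 and 71707 to 87761 in HMG, against 114326 to 135972 in AtHB8 and 79233 to 87609 in S17. The sums of the AtHB8 arrays lay above those of all epidermal arrays, and the sums of the S17 arrays overlapped with them. Such a sum weighs bright probe sets most. Gene by gene, the 13 genes had a median of 235% of the epidermal mean in AtHB8 and 247% in S17. In S17 they ran from 75.7% for TCH4 to 3839% for NCED3, so the overlap of the sums does not show alike levels. In HDG4 the sum was 52312 to 67407 and in KAN1 63796 to 76001, and the part of this response in the levels of the regulators was not tested.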

How the data were processed

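The deposited values were linear MAS5 intensity values per ATH1 probe set, with an equal trimmed mean on every array. Per the submitters' processing notes, MAS5 made these values (the version is not given in the sources used here). The authors' deposited table of averaged intensity lists, per locus, the mean of each reporter and detection calls, and its means differed by at most 0.005 from those computed here. That table does not state which array of a reporter each call belongs to. Calls were read in the order of the replicate numbers, in which the array with the only present call also had the highest signal in 62.3% to 83.3% of such probe sets, against at most 41.6% in any other order. No replicate pair held identical values (0 of 17). Files name no genome build, so no coordinates are given.

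Members and gene lists were chosen with earlier results of these data known. After leaving out 64 control probe sets and the filter described above, 15149 of 22746 probe sets were fitted with limma 3.58.1 in R 4.3.3, with 1 mean per reporter, a pseudocount of 1 and moderation over 12 residual and 3.07 prior degrees of freedom. Tests were two-sided, and each adjusted p comes from limma over all probe sets tested unless an exact test is named. The epidermal mean weighs AtML1 and HMG equally. The fit was tested on simulated data.

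Named are all members with a probe set, every relative or partner with one, up to 4 called wax or cutin genes with the largest differences from the rest and from HDG4, and the 3 closest patterns per tested member. Others are said to be chosen after their values were seen, apart from marker genes. Alternatives were another pseudocount, other filters, quantile normalization, array weights, the replicate number as a block, leaving out arrays and 13 arrays. The number of arrays limits the precision. Replicate numbers were not used as pairs.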

Additional observations from a re-analysis of the deposited data

How the results depend on the processing

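Against the rest, HDG4 and the vascular reporters, all 4 tested regulators stayed higher in the epidermis under every alternative that could be run. The sizes against the rest fell when AtHB8 and S17 were left out of it, to 3.24 for SHN3, 2.28 for MYB30, 1.99 for MYB94 and 1.86 for MYB96. SHN3 then had the largest difference in place of MYB30. The count of regulators called against LAS, 0 of 4, was 4 with a pseudocount of 16, where 4.24% of all probe sets were called higher. The count was 3 in the 13-array fit, where 3.56% were. MYB94 was called against LAS with the 60th percentile filter (adjusted p = 0.0434) and with quantile normalization (adjusted p = 0.0441). Single vascular arrays left out also moved calls against LAS, as given above. The count against KAN1, 2, was 1 with no filter, where 5.67% of 22746 probe sets were called in either direction. It was also 1 with the replicate block and without the 3 arrays with the highest actin ratio, and 0 to 3 when single arrays were left out. The count for AtML1 minus HMG, 0, was 2 with no filter (MYB16 and MYB106), where 2.42% of probe sets were called in either direction. It stayed 0 when single arrays of the reporters with 3 arrays were left out. Without AtML1 replicate 3, MYB16 passed the filter only through the 1 AtML1 array left, so no count is given for that fit. The count for AtHB8 minus S17, 0, was 0 to 1 when single arrays were left out (MYB96 without AtHB8 replicate 1, MYB30 without AtHB8 replicate 3). Steps called in the order of levels numbered 5 of 24, with MYB30 from HDG4 to S17, both called absent, among them. They numbered 8 with a pseudocount of 16. The other counts given here have no share of all probe sets beside them, so a moved count cannot be told from a moved share.

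MYB30 in AtML1 minus HMG (0.02) turned to -0.016 with array weights and -0.070 without the 3 arrays with the highest actin ratio, and ranged from -0.070 (without HMG replicate 1) to 0.087 when single arrays were left out. MYB94 in AtHB8 minus S17 ranged from -1.17 to 0.14 when single arrays were left out, with 0.14 without S17 replicate 3. SHN3 in KAN1 minus HDG4, called absent in both, passed the test without the 3 arrays, with array weights and with the replicate block, at adjusted p of 0.00407, 0.028 and 0.00233. MYB30 against KAN1 was called with a pseudocount of 16 (adjusted p = 0.00257) and with array weights (adjusted p = 0.0472). The cause was not tested.

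As a block, the replicate number moved MYB96 against KAN1 to 1.17 (adjusted p = 0.0654). Same-numbered arrays correlated between -0.23 and 0.21 after removing group means, with a median of 0.004, against a median of 0.0005 for arrays of different number. Of the 19 arrays, 7 correlated best with an array of their own number. No pairing by number was seen in these values, and a shared day or sort was not tested. With 2 or 3 arrays a reporter, differences of dim genes have wide errors, and no order of transcript levels is drawn from signals called absent.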
